A study of Drosophila melanogaster with 2 samples.

Results

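The genes described here are 10 Drosophila genes that encode insulator and core promoter binding proteins, out of 13945 protein-coding genes annotated on the 6 main chromosome arms. They are Chro, Cp190 and mod(mdg4), which encode insulator cofactors; CTCF, su(Hw) and BEAF-32, which encode insulator proteins that bind DNA; and M1BP, Dref, Trl and Adf1, which encode proteins that bind promoters. They were chosen by the deposited peak signals at some of them, with those values known. For each gene, every peak and candidate peak was collected whose summit lay in the gene or within 1 kb of it. The values of these peaks are therefore descriptions, and none was tested.

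The data are chromatin immunoprecipitation with sequencing from 1 group of whole Drosophila melanogaster embryos, aged 0 to 18 hours, in 2 biological replicates. The strain, CkIIalpha-i1-GFP, expresses a fusion of eGFP with CkIIα-i1, which takes its name from binding to the catalytic subunit of casein kinase 2, and chromatin sonicated to 200 to 800 bp was precipitated with an anti-GFP antibody. Whole embryos mix all cell types and many stages, and the labels do not say which promoter drives the fusion. No untagged or other control embryos were analysed here, so no value below has a background measured without the tag.

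Insulator proteins bind between regulatory domains, where they can block an enhancer from acting on a neighbouring promoter and mark the borders of chromatin domains. In flies, CTCF, Su(Hw) and BEAF-32 recognise DNA and recruit cofactors such as CP190, Mod(mdg4) and Chromator. Promoter-binding factors recognise short motifs close to the start sites of genes, and many fly promoters lie head to head, so that a pair of genes shares the DNA between their start sites.

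The authors deposited 4 comparisons of peaks by irreproducible discovery rate (IDR), each as a ranked list of all candidates and as a thresholded list of peaks. The conservative list compares the replicates with each other and holds 139481 candidates and 663 thresholded peaks. The pooled list uses the same pooled peak positions and signals and holds 944 thresholded peaks, replicate 1 alone gave 427 and replicate 2 alone gave 569. A signal value is the authors' score for a peak, with a median of 92.0 over the 663 conservative peaks and 17.8 over all conservative candidates. The number of reads behind a peak is unknown. Peaks in the thresholded lists passed a global IDR of 0.01, which is 2 on the −log10 scale.

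Of the 10 genes, 4 had a thresholded conservative peak, which were Chro, Cp190, Trl and Adf1, against 5.76% of all protein-coding genes. In the pooled list 6 had one, with M1BP and Dref added, against 7.64% of all genes. In replicate 1 alone 4 had one, Chro, Trl, Adf1 and Dref, against 4.09%. In replicate 2 alone 3 had one, Chro, Trl and Adf1, against 4.57%. Because peaks at some of these genes were known when the genes were chosen, nothing is read from these shares. The median window was 6472.5 bp for the 10 genes and 4166 bp for all genes. A candidate of any signal was present at 9 of the 10 in the conservative list, against 91.0% of all genes.

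**Figure D1:**
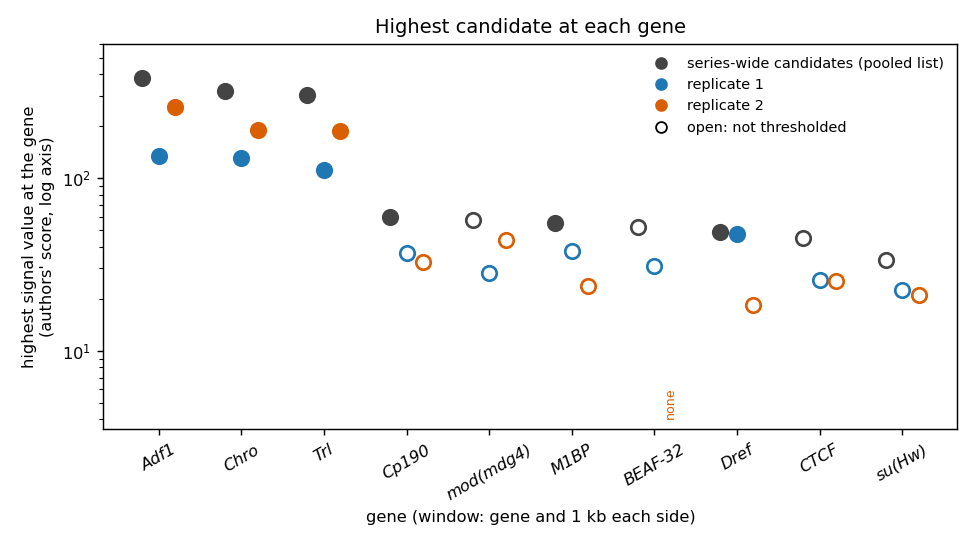
Highest signal value (authors' score, log axis) of any candidate in each gene's window, in the pooled list (grey), replicate 1 (blue) and replicate 2 (orange); filled points are thresholded peaks and open points are not. Adf1, Chro and Trl stand at 381, 321 and 303 in the pooled list and the other 7 genes lie between 33.7 and 59.3, while BEAF-32 has no candidate in replicate 2.

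By signal and threshold the 10 genes were of 3 kinds. Adf1, Chro and Trl had conservative signals over 300, at sites that were thresholded in every list. Cp190, M1BP and Dref had peaks between 48.8 and 59.3, which passed the IDR limit in some lists and failed in others. For mod(mdg4), CTCF, su(Hw) and BEAF-32 no peak was thresholded in any list. The last 2 kinds overlapped in signal, since the highest candidate of mod(mdg4), at 57.0, was above those of M1BP and Dref. By the highest conservative signal in its window, Adf1 was 22nd, Chro 33rd and Trl 40th of the 12687 genes with a candidate, and Cp190 was 1015th. In all, 8 sites at 6 of the genes were thresholded in at least 1 list. No share of all genes over the lists together is given beside this count, so nothing is read from it.

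The sequences below lie at or near the summits of some of the sites, with matches to some of the motifs marked. The Chro line and the second Cp190 line do not include the summit. No line is given for Adf1 or for the second Trl site. They are shown 5′ to 3′ on the strand of the gene, from the Release 6 reference (dm6). Capitals mark a match to CGATA, the core recognised by BEAF-32, which reads TATCG on this strand, or to ACAGTGG, which reads CCACTGT. In the second Cp190 line capitals mark the whole DNA replication-related element (DRE), TATCGATA, the motif bound by Dref. Other words that were searched are not marked, among them TATAAA, which lies in the M1BP and Trl lines. The first Cp190 line is chr3R:15275242-15275442, upstream of the start site, and the second is chr3R:15275229-15275254, across the start site. The Chro line is chr3L:22878882-22878906 in the 5′ UTR, the Trl line is chr3L:14759392-14759592 in an intron, and the M1BP and Dref lines, chr3R:8731941-8732090 and chr2L:9967230-9967312, lie between each gene and its neighbour.
Chro: agtttaaagcTATCGacaggcaata
Cp190 upstream: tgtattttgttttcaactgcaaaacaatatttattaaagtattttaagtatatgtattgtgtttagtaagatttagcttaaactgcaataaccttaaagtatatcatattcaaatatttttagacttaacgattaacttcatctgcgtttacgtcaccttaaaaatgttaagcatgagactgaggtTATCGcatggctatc
Cp190 start site: tcgcatggcTATCGATAgctgccgag
M1BP: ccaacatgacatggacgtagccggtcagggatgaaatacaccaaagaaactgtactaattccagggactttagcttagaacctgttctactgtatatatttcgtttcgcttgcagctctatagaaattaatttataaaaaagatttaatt
Dref: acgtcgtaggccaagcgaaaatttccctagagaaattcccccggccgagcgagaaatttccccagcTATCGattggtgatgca
Trl: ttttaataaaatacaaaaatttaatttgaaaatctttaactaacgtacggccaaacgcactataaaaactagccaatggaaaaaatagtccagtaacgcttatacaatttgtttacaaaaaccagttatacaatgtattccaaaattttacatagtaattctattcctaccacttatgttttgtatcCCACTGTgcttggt

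Among the insulator cofactors, Chro had the strongest peak. Chro (FBgn0044324) encodes Chromator, a chromodomain protein of polytene interbands and domain borders. Its peak, chr3L:22878814-22878965, lay in the 5′ UTR, 105 bp downstream of the first start site of Chro, and had a signal of 321. The signal was 130 in replicate 1 and 191 in replicate 2, and the peak was thresholded in both, as the 27th and the 17th by signal. Both replicates placed the summit on the same base, and the −log10 IDR between them was 4.21. Among the conservative peaks it was the 20th by signal, between peaks nearest to lncRNA:CR45643 (321.4) and to GstE13, a glutathione S-transferase gene (321.2). The start site of Ssl1, on the opposite strand, lies 105 bp from that of Chro, so the peak, 210 bp from it, is also close to Ssl1. CGATA in the Chro line above lay 15 bp from the summit.

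Cp190 had a much weaker peak at its promoter. Cp190 (FBgn0000283) encodes the BTB and zinc finger cofactor that is recruited by several insulator proteins. Its peak, chr3R:15275200-15275483, had its summit 101 bp upstream of the start site, in the 281 bp between Cp190 and CG4338 on the opposite strand. The conservative signal was 59.3, with 36.8 in replicate 1 and 32.6 in replicate 2. These 2 values are close, but neither was thresholded in the replicate's own list, with −log10 IDR of 1.22 and 0.97. Their summits were 84 bp apart, the widest separation at the 8 sites. The peak was 636th of the 663 conservative peaks by signal, between peaks nearest to PNUTS (59.3) and Tsp42Er (59.2), and its −log10 IDR was 2.24. The DRE printed above spans the annotated start site, 100 bp from the summit.

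For mod(mdg4) (FBgn0002781), a BTB protein gene whose many isoforms are made by trans-splicing, no peak in its window was thresholded, although the window is the longest of the 10 at 28556 bp. Its highest candidate had a signal of 57.0, but the inputs of the conservative list were uneven, 10.1 for replicate 1 and 43.8 for replicate 2. Replicate 1's own list had no candidate of that value or at that site, so the 10.1 could not be matched to it. The −log10 IDR was 0.18. The summit lay in an intron of mod(mdg4), 41 bp into pre-mod(mdg4)-E, one of the short genes that supply trans-spliced exons. A thresholded peak stood just outside the limit, 1404 bp upstream of the mod(mdg4) start site, at chr3R:21378663-21378946. Its conservative signal was 122, with 57.4 in replicate 1 and 54.6 in replicate 2, and its summit lay 172 bp upstream of tin, which encodes the homeodomain protein Tinman. The choice of 1 kb therefore decides whether mod(mdg4) is counted. The candidate closest inside the limit was 990 bp outside CTCF (signal 19.9), and the closest outside was 1015 bp from Cp190 (22.8).

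None of the 3 genes of insulator proteins that bind DNA had a thresholded peak. At CTCF (FBgn0035769), the fly homologue of the vertebrate CTCF zinc finger protein, the highest candidate had a signal of 45.0, with 25.6 in replicate 1 and 19.3 in replicate 2. It lay 145 bp downstream of the start site, in an intron that an antisense RNA overlaps, and its −log10 IDR was 1.08. At su(Hw) (FBgn0003567), which encodes the zinc finger protein that binds the gypsy insulator, the highest candidate was 33.7, with 22.4 in replicate 1 and 11.5 in replicate 2. It lay in a coding exon, 2584 bp from the start site. At BEAF-32 (FBgn0015602), which encodes the boundary element associated factor, there was no candidate in the conservative list and none in replicate 2. The highest in the pooled list was 52.1, at 50 bp upstream of the start site, with a −log10 IDR of 0.87, and replicate 1 had 28.7 there. The highest in replicate 1, 30.9, was at another site, in an intron. Over the 12687 genes with a conservative candidate, the median of the highest signal was 34.2, so su(Hw) stood near that median and CTCF above it.

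Among the promoter-binding factors, M1BP and Dref had weak peaks at shared promoters. M1BP (FBgn0037621) encodes the zinc finger protein that binds motif 1 of core promoters. Its highest candidate, chr3R:8731899-8732182, had a signal of 55.3, with 37.7 in replicate 1 and 23.6 in replicate 2. The −log10 IDR was 1.83 in the conservative list, under the limit of 2, and 2.23 in the pooled list, where the peak was 884th by signal. The summit lay 343 bp upstream of M1BP but only 50 bp upstream of CG8202, whose start site faces it from 393 bp away. The site is thus nearer to the neighbour than to M1BP.

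Dref showed the largest difference between the replicates of the 8 sites. Dref (FBgn0015664) encodes the factor that binds the DRE of replication and growth gene promoters. At chr2L:9967155-9967438 the signal was 47.4 in replicate 1, thresholded and the 308th there, and 5.96 in replicate 2, not thresholded. The log2 ratio of replicate 2 to replicate 1 was -2.99, and the −log10 IDR between the replicates was 0.16. The pooled list nevertheless held it, as its 920th peak, with a −log10 IDR of 2.02. The summit lay 68 bp upstream of Dref and 16 bp upstream of RpL13, a ribosomal protein gene, in the 84 bp between their start sites.

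**Figure D2:**
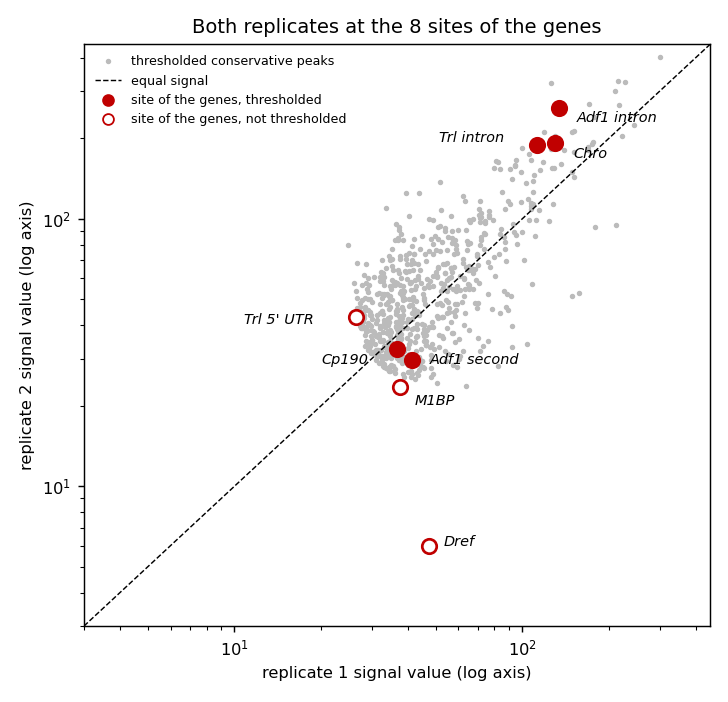
Signal of replicate 2 against replicate 1 (authors' score, both axes log) for the 663 thresholded conservative peaks (grey) and the 8 sites at the genes (red, filled where thresholded in the conservative list); the dashed line marks equal signal. Adf1, Chro and the Trl intron lie above the line at the upper end, Cp190, M1BP and the second Adf1 site lie just under it, and Dref lies far below at 47.4 and 5.96.

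Trl (FBgn0013263), which encodes the GAGA factor, had 2 sites. The stronger, chr3L:14759425-14759561, lay in an intron and had a signal of 303, with 112 in replicate 1 and 188 in replicate 2. It was thresholded in both, as the 39th and the 19th, and was the 25th conservative peak. Its summit lay 1557 bp downstream of the first Trl start site and 1530 bp upstream of a later one that Trl shares with CG42507, so it was the farthest from a start site of the 8. Peaks nearest to CG13390 (307) and to HmgZ, a high mobility group gene (298), stood on either side of it by signal. The second site, chr3L:14757083-14757366, lay 111 bp downstream of another Trl start site, in the 5′ UTR of both Trl and CG42507, with a signal of 75.4. Replicate 1 gave 26.4, not thresholded, and replicate 2 gave 43.1, thresholded as its 464th peak. Its −log10 IDR was 1.98 in the conservative list, just short of the limit, and 2.49 in the pooled list. No GAGAG, the core that GAGA factor binds, lay within 100 bp of either summit. Within 250 bp there was 1 match at the first and 11 at the second, and Dref had 2. At that distance 61.1% of the thresholded conservative peaks and 47.0% of the candidates not thresholded held at least 1. Matches that overlap can each be counted, so the 11 need not be separate sites.

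Adf1 (FBgn0284249), which encodes a MADF domain activator first known from the Adh promoter, had the strongest peak of the 10 genes. It lay in an intron at chr2R:6662978-6663152, 772 bp downstream of the Adf1 start site, with a signal of 381, 134 in replicate 1 and 259 in replicate 2. It was the 26th and the 8th peak of those replicates and the 11th conservative peak, between peaks nearest to PNPase (423) and CenG1A (368). A second peak, chr2R:6663367-6663650, had a signal of 56.7, with 41.4 in replicate 1 and 29.5 in replicate 2. It was the 647th conservative peak, between those nearest to CG30349 (57.0) and lncRNA:CR45251 (56.0), and it also overlapped an exon of lncRNA:CR45128. Its −log10 IDR was 2.23 in the conservative list and 1.89 in the pooled one, so it passed in the first and failed in the second. For M1BP, Dref and the second Trl site the reverse held.

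**Figure D3:**
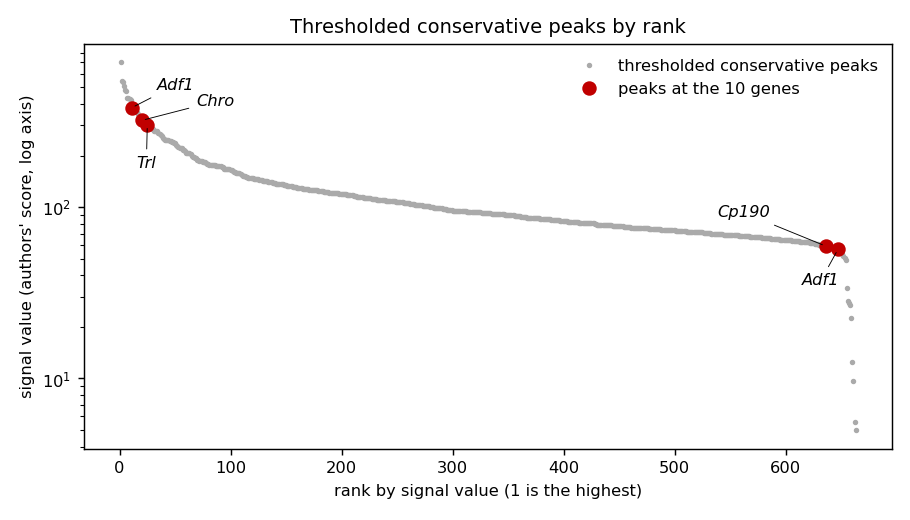
Signal value (authors' score, log axis) of the 663 thresholded conservative peaks by rank, with the 5 peaks at the genes in red. Adf1, Chro and Trl are the 11th, 20th and 25th, and Cp190 and the second Adf1 peak the 636th and 647th, with no peak of the 10 genes between.

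At the 3 strongest sites replicate 2 had the higher signal. The log2 ratio of replicate 2 to replicate 1 was 0.55 at Chro, 0.74 at the Trl intron and 0.95 at Adf1. Among the 50 conservative peaks of highest signal, the median ratio was 0.48 and 44 were higher in replicate 2. Over all 663 the median was 0.18, with quartiles of -0.19 and 0.53, and 410 were higher in replicate 2. The weaker sites lay on the other side, at -0.18 for Cp190, -0.49 for the second Adf1 peak and -0.68 for M1BP, except for the second Trl site at 0.70. The 3 strong peaks were also narrow, at 152, 137 and 175 bp for Chro, Trl and Adf1. The widest conservative peaks measure 284 bp, and 77 of the 663 were narrower, among them all 50 of highest signal.

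**Figure D4:**
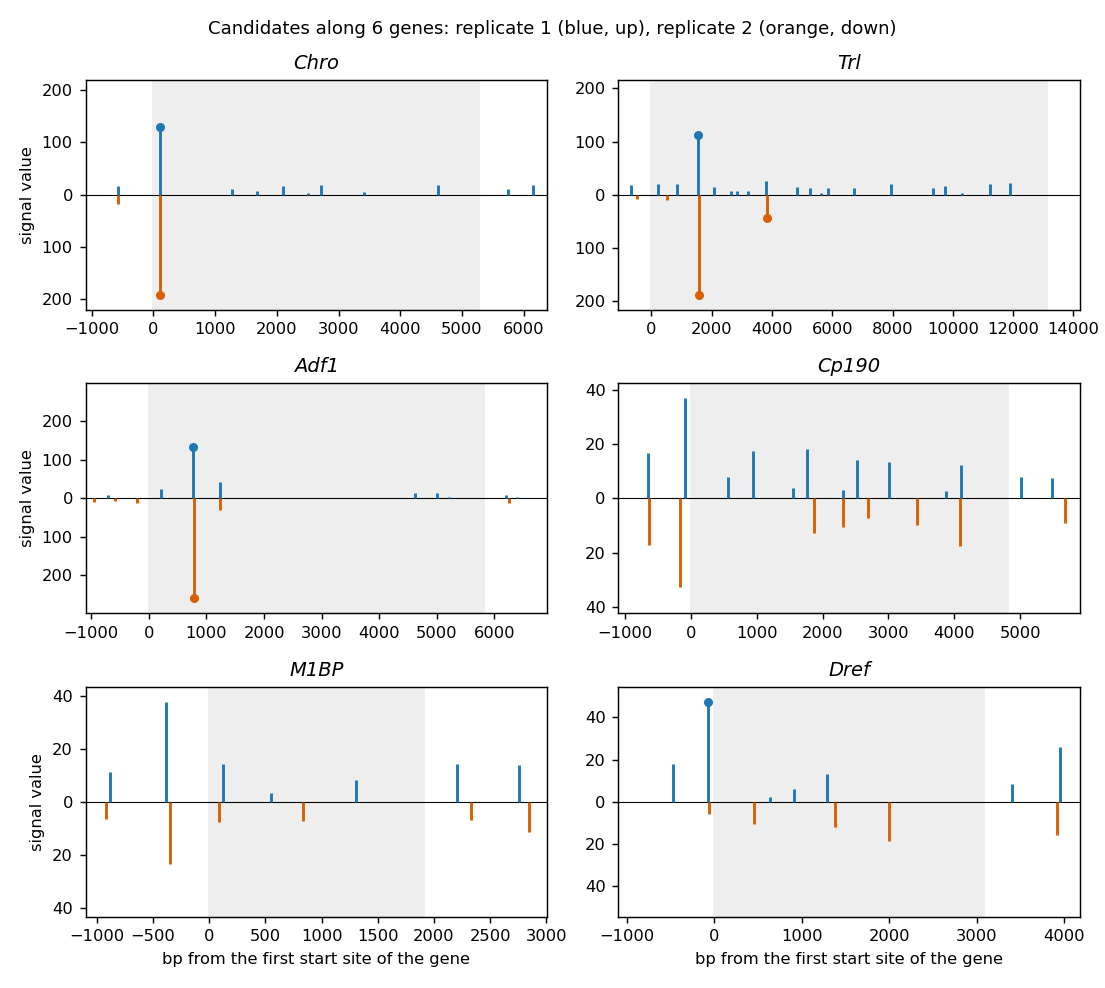
Candidates along 6 of the genes by distance in bp from the first start site (grey, the gene), with replicate 1 signals drawn upward in blue and replicate 2 downward in orange; dots are thresholded peaks, and the signal axes differ between genes. Chro, Trl and Adf1 have 1 tall peak in both replicates, and at Dref the tall candidate is in replicate 1 alone.

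Candidates of any signal were unevenly spread between the replicates. Replicate 1 had 117 at the 10 genes and replicate 2 had 47, a ratio of 2.49, while over all protein-coding genes the ratio was 1.14. Replicate 1 had more at 9 of the 10 genes, and at CTCF each had 6. Of all 13945 genes, 7640 had more in replicate 1, 3712 had more in replicate 2 and 2593 had equal numbers. The gap was widest at mod(mdg4), with 29 in replicate 1 and 4 in replicate 2, and at Trl, with 20 and 4. Chro had 11 and 2, and BEAF-32 had 4 and 0. Leaving out 1 gene at a time gave ratios from 2.05, without mod(mdg4), to 2.71, without CTCF.

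**Figure D5:**
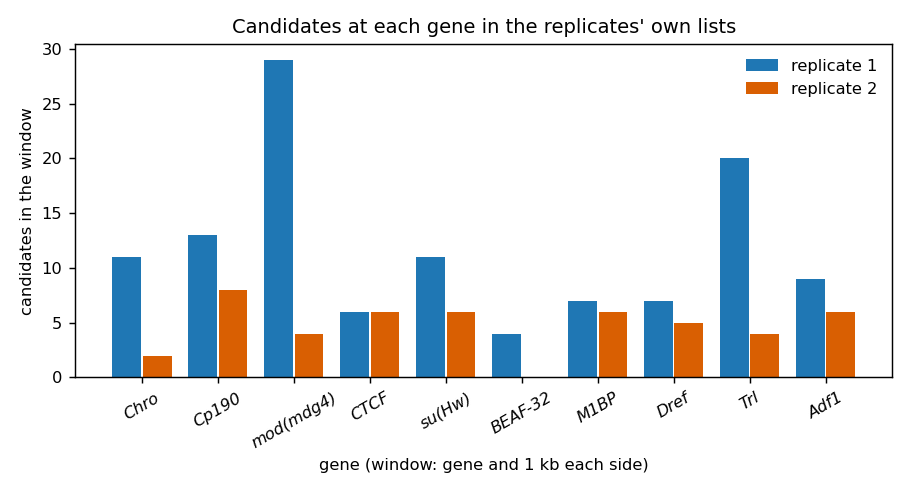
Number of candidates of any signal in each gene's window in the replicates' own ranked lists (blue, replicate 1; orange, replicate 2). Replicate 1 has more at 9 of the genes, from 29 against 4 at mod(mdg4) to 7 against 6 at M1BP, and CTCF has 6 in each.

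Several of these genes sat in long stretches where replicate 2 had no candidate at all. Such a stretch was 19133 bp long at Trl, 17608 bp at mod(mdg4), 16767 bp at Chro and 12109 bp at BEAF-32, against a median of 802 bp between neighbouring candidates. Only 0.28% of the stretches in replicate 2 were as long as that at Trl. In replicate 2, 4 of the 10 windows touched a stretch longer than 99% of all, against 18.8% of all genes. In replicate 1 this held for 1, Trl, against 9.93%. At Chro the empty stretch ended at the strong peak itself, and at Trl it ended at the second site. The long windows of Trl and mod(mdg4) can touch more such stretches, and the part of window length or of the authors' processing in this was not tested.

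Of the motifs that the encoded proteins bind, only CGATA lay whole within 100 bp of any of the 8 summits. It was at 3 of them, those of Chro, Cp190 and Dref, and within 100 bp of 27.3% of the 653 thresholded conservative peaks on the main arms. Candidates that were not thresholded held it in 19.9% of cases. No whole DRE fell inside the 100 bp windows of the 8, against 2.60% of peaks. The one at Cp190, 100 bp from the summit, was cut by the window edge. Within 250 bp the whole DRE lay at 1, Cp190, against 5.67% of peaks and 0.98% of the other candidates. The M1BP core GGTCACAC (1.53% of peaks), the CTCF core AGNNGGCGC (1.53%), the Su(Hw) core GCATACTTT (0.306%), the Adf1 repeat GCNGCNGC (5.51%) and GAGAG (25.1%) were in none of the 8 windows of 100 bp each side. These letters being absent from a window says nothing of the factor itself.

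Other words did occur at the sites. TATAAA lay within 100 bp of 4 of the 8 summits, at Chro, M1BP, the Trl intron and the stronger Adf1 site, where it was 10 bp away, against 36.4% of peaks and 13.9% of the other candidates. ACAGTGG lay at 2, the Trl intron, at 90 bp, and the second Adf1 site, at 39 bp, against 16.2% of peaks and 2.80% of the other candidates. The shorter word inside it, CAGTG, lay at 4 of the 8, against 55.3% of peaks and 34.6% of the other candidates. The 3 strongest windows had no 7-letter word in common, and 26 words occurred in 2 of the 3, of which 8 were made of A and T alone. The share of G and C within 100 bp was 27.4% at Cp190 and 28.4% at the Trl intron, under the lower quartile of 32.3% over the peaks. It was 48.3% at the second Trl site, 43.3% at Dref and 41.8% at the stronger Adf1 site, above the upper quartile of 40.8%. The median was 35.8% over the peaks and 46.8% over the other candidates.

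In 4 cases the sites lay at shared promoters. No share over all thresholded peaks is given beside this count, so nothing is read from it. At Chro, Cp190, M1BP and Dref a start site on the opposite strand lay within 500 bp of the summit, those of Ssl1, CG4338, CG8202 and RpL13, and the peak could belong to either gene of each pair. The start sites of the pairs were 84 bp apart for Dref and 393 bp for M1BP. The remaining 4 sites, at Trl and Adf1, lay inside their own gene, as the Chro summit also did. Of these, the second Trl site also lay in CG42507 and the second Adf1 site in lncRNA:CR45128.

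Of 39 other genes of insulators, cohesin and promoter factors, 2 had a thresholded conservative peak, JIL-1 and shep, beside the 5.76% of all genes. JIL-1, a histone H3 kinase gene of interbands, had a peak of 95.3 in an intron, which was the 304th. At shep, which encodes an RNA-binding protein that limits gypsy insulator activity, the peak was 73.6 and the 496th, in a window of 124124 bp. The JIL-1 peak was also thresholded in replicate 2, with 58.3, but the shep peak, with 41.3 there, was not. The thresholded replicate 2 peak of shep, with 55.9, was at another site, 182 bp upstream of a shep start site, where the pooled list had 78.3. In replicate 1 none of the 39 genes had a thresholded peak, against 4.09% of all genes. The pooled list added psq, a gene for a BTB protein that binds GAGAG, with 61.0. That made 3 of the 39 in the pooled list, against 7.64% of all genes. Of these 39 genes, 34 had a conservative candidate of any signal, against 91.0% of all genes.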

How the data were processed

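Peak lists from 2 biological replicates of 1 group were used, with no comparison between groups. The deposited signal of a peak is a score in a column of the authors' lists, with no scale stated. The authors also deposited the −log10 of the global IDR for each candidate. Peaks were given on dm6, per the labels. Which aligner and caller made them is not given in the sources used here. The conservative list carries a signal for each input: the first was identical in position and signal to a replicate 1 peak for 69.1% of candidates and the second to a replicate 2 peak for 69.0%, and at all 8 sites they equalled the replicates' own lists. Depth is unknown, so no interval was computed.

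Genes and start sites came from the Ensembl annotation BDGP6.54 (release 115), without transposable elements, and sequence from the NCBI Release 6 genome. A gene's window was the gene and 1 kb each side, and a summit in it was counted. The counting was tested on planted summits. The rule for genes named was all 10 genes, other list genes with a thresholded peak, the nearest and facing genes of their peaks, and the genes of the peaks 1 rank above and below; tin and the short mod(mdg4) exon gene were named after their values were seen. The members and lists were chosen with earlier results of these data known. In the list of 39, SA was read as SA1 by RefSeq synonym. Motif searches covered both strands, 100 bp each side of a summit, with N as any base. CGATA occurs inside the DRE, so those matches can overlap. Alternatives were other lists, windows, IDR limits, overlaps and motif windows. Python 3.11.15, pandas 2.3.3, numpy 2.4.6, pysam 0.24.0 and matplotlib 3.10.9 were used.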

Additional observations from a re-analysis of the deposited data

How the results depend on the processing

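The count of the 10 genes with a conservative peak was 4, and it ranged from 3 to 6 over the lists, windows, IDR limits and single replicates tried. Chro, Trl and Adf1 were counted in every one of these. A limit of 0.01 on all ranked candidates, an alternative chosen after seeing the data, also gave 4. It only adds to the thresholded list 43 candidates that passed this limit and were left out of it, so the count could hardly change. Cp190 was lost with the gene body alone, with a limit of 0.001 and in either replicate's own list. Genes counted in both replicates stayed at 3 with summits within 100 bp and with 50% reciprocal overlap, and were 4 within 2 kb, where mod(mdg4) was added. Shares of all genes are given above for the 4 lists only, and nothing is read from counts at other settings. The count over the 39 other genes, 2, was 0 to 2 without 1 replicate, 1 with the gene body alone, 1 within 500 bp, 0 at a limit of 0.001 and 5 at 0.05. Of 47 values for single genes and motifs, 21 stayed and 26 moved. Those that stayed include every highest signal read from the pooled list. That list uses the same signals as the conservative list, so these values could not move and say nothing of stability. Of those that moved, 18 were highest signals read from 1 replicate's own list. At each of these genes that value was lower than the highest pooled signal, so these 18 say nothing of stability. The other 8 were motif counts in other windows, and CGATA was at 1 of the 8 sites within 50 bp and at 5 within 250 bp. No paired analysis was possible because there is 1 group. With 2 replicates and unknown read depth, peaks near the IDR limit cannot be placed firmly on either side of it.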
